A study of Mus musculus with 4 samples.

Results

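Dmkn, Sbsn and Krtdap are 3 genes of the epidermis that lie side by side on mouse chromosome 7, and they are described here with 5 genes of the cornified envelope, namely Ivl, Lor, Sprr1a, Sprr1b and Tgm1. The 8 genes were chosen by symbol because Dmkn had the largest rise with MS-275 among the genes measured in embryonic stem cells (ESCs), and the others because they are its neighbours or act at the same stage of epidermal differentiation. All 8 symbols were found once among the 28250 genes with a deposited value. Since the contrast between MS-275 and solvent chose them, their values are given as a description and without a test.

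The cells were TBV2 ESCs, a mouse line grown with LIF on a feeder layer and on gelatin. Solvent replicates 1 and 2 were kept for 24 h with solvent alone, and MS-275 replicates 1 and 2 for 24 h with 5 µM MS-275, an inhibitor of class I histone deacetylases. LIF, feeders and gelatin were common to both groups. Nothing in the labels says that the 2 libraries of a group came from separate cultures, so spreads and p-values cover these libraries, whose differences may be technical.

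The outer layer of the skin is built by keratinocytes that leave the basal layer, stop dividing and replace their membrane by a cornified envelope. Involucrin (Ivl), loricrin (Lor) and the small proline-rich proteins (Sprr1a, Sprr1b) are the building blocks of that envelope, and transglutaminase 1 (Tgm1) cross-links them. Dermokine (Dmkn), suprabasin (Sbsn) and keratinocyte differentiation-associated protein (Krtdap) are secreted proteins of the suprabasal layers. Dermokine is made in long and short forms that share their 3′ end. AP-1, a dimer of Jun and Fos proteins, is a known activator of several envelope genes in keratinocytes.

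The expression value of a gene is a normalized signal, not a count. The alignments, each 35 bases long, numbered between 9785619 and 23467935 a library. Repeated positions made up 53.2% and 54.4% of the alignments deposited with solvent and MS-275 replicate 1 and 0.0% of those deposited with replicate 2. The values and the alignments of the replicates did not go together as deposited. Mitochondrial ND6 had values of 1.63 (solvent) and 1.43 (MS-275) in the first replicates and 0 in the second ones, whereas the alignments deposited with replicates 1 held 0 mitochondrial positions and those with replicates 2 held 13431 and 13889. RPM stands for alignments per 1000000 alignments of a set, and RPKM for RPM per kb. Of protein-coding genes with at least 20 exon alignments, between 21.6% and 23.9% had a value that, multiplied by 100, lay within 10% of the RPKM in the other replicate's alignments, and between 5.34% and 13.4% lay as close to those of the same replicate. Values of replicate 1 therefore have to be read beside the alignments deposited with replicate 2 of the same condition, and the reverse. This held for both conditions alike, so neither the groups nor the pairs were affected. Alignments are named below by the library with which they were deposited.

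In mm9 coordinates the cluster spans 39.61 kb, with Sbsn at chr7:31536490-31541152, Dmkn at chr7:31548775-31566085 and Krtdap at chr7:31572924-31576102, all on the plus strand. Dmkn starts 7.62 kb after the end of Sbsn, and Krtdap starts 6.84 kb after the end of Dmkn. The annotation gives Dmkn 4 long transcripts and 1 short transcript (Dmkn-201), whose own first exon lies 12.65 kb inside the gene. RefSeq's list of starts on GRCm38.p6 places a start of Dmkn at the same distance of 12.65 kb from the first. Ivl, Lor, Sprr1a and Sprr1b lie on chromosome 3, at chr3:92374834-92377637, chr3:91884197-91887064, chr3:92287877-92289816 and chr3:92240731-92242701, and Tgm1 lies on chromosome 14 at chr14:56318846-56332329, all on the minus strand.

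The 250 bases before each start of the cluster are shown because they hold a feature that was not used to choose the genes. The windows are chr7:31536240-31536489 (Sbsn), chr7:31548525-31548774 (long Dmkn transcripts), chr7:31561174-31561423 (short Dmkn transcript) and chr7:31572674-31572923 (Krtdap) on the plus strand. The window of Ivl, chr3:92377638-92377887 on the minus strand, is given for comparison, since Ivl had no reads. All are from the mm9 genome and read 5′ to 3′ up to the base before the annotated start. Capitals mark the AP-1 motif TGANTCA, where N is any base, and the TATA motif TATAAA.
Sbsn: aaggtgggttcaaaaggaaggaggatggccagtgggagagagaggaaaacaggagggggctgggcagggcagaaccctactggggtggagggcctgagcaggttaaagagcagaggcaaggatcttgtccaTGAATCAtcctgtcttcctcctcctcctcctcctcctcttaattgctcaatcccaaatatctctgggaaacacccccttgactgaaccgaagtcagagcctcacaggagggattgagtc
Dmkn, long transcripts: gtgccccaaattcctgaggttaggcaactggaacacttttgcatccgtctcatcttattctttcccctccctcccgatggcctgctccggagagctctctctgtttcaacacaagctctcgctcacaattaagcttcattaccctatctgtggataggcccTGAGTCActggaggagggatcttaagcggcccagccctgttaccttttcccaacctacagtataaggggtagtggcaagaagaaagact
Dmkn, short transcript: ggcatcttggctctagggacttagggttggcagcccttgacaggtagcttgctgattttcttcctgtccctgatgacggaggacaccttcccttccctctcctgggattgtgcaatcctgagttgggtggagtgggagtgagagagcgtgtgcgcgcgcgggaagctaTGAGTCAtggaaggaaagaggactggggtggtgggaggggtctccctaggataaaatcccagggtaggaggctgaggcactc
Krtdap: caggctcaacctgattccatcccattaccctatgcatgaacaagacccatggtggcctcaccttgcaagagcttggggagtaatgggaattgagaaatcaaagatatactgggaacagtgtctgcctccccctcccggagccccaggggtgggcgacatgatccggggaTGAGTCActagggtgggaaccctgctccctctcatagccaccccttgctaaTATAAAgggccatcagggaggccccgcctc
Ivl: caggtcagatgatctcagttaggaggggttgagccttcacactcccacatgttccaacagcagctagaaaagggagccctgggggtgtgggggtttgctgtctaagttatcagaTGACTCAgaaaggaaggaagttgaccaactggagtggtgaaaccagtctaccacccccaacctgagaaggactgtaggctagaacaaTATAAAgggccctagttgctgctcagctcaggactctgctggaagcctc

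Each of the 5 windows held 1 AP-1 motif. It lay at -119 to -113 before Sbsn, at -89 to -83 before the long and -82 to -76 before the short start of Dmkn, at -81 to -75 before Krtdap and at -136 to -130 before Ivl, counted back from the start. The middle base was A before Sbsn, G before both Dmkn starts and before Krtdap, and C before Ivl. A narrower motif, with only C or G in the middle, would leave out the Sbsn match here and in the counts below. Its share of all starts was not counted. Both strands were searched, and no AP-1 motif overlapped a TATA motif. Among 22347 starts of protein-coding genes with a window of the same length, 6.0% held the AP-1 motif and 12.3% the TATA motif. Of the 8 gene starts of the members, 7 held the AP-1 motif (all but Tgm1) and 5 the TATA motif (Ivl, Krtdap, Lor, Sprr1a and Sprr1b). The motifs AP-2 (GCCNNNGGC), GC box (GGGCGG) and CCAAT were searched as well and had 0 matches in the 5 windows. Among the 8 gene starts, 0 held the AP-2 motif, 1 the GC box (Tgm1) and 2 the CCAAT motif (Sprr1a and Sprr1b). The AP-1 motif was therefore not the only motif looked for. Of the 9 other genes with a value that start within 100 kb of Dmkn, 1 held the AP-1 motif (Ffar2). Of 110 other epidermal genes, 13.6% held it. The AP-1 match was found before Dmkn, the gene with the largest rise, and before Sbsn, whose groups overlapped. It was also found before Ivl and Sprr1b, which had no reads in any library. Whether AP-1 binds at these starts or acts on these genes was not tested. The windows of the cluster had a GC content between 50.8% and 57.6% against a median of 54.0%, and held between 1 and 6 CpG against a median of 8.

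Dmkn was close to absent with solvent and higher in both MS-275 libraries. Its values were 0.00052 and 0.00194 in solvent replicates 1 and 2, and 0.0763 and 0.441 in MS-275 replicates 1 and 2. Both MS-275 libraries lay far above both solvent libraries, and they differed from each other by more than the whole solvent range. On the scale of log2(value + 0.005), which understates the change of low genes, the difference was 4.94 over the groups, 3.88 in pair 1 and 6.0 in pair 2, rank 1 of 28250 genes. Whether more cells carried the RNA or each cell carried more cannot be told apart in bulk libraries, here and for the other genes. In solvent replicates 1 and 2, 29.9% and 40.6% of all genes had a lower value than Dmkn. In MS-275 replicates 1 and 2, 67.3% and 92.8% did. The alignments on Dmkn exons numbered 6 and 1 in those deposited with solvent replicates 1 and 2 and 621 and 70 in those deposited with MS-275 replicates 1 and 2. In RPM, the exon reads were 121-fold higher with MS-275 in the first pair (95% interval 55.5 to 332) and 62.7-fold higher in the second (10.9 to 2514), where the intervals cover counting error only. The 621 alignments stood at 148 positions, with 147 at a single one, and the other 70 at 70 positions.

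These reads did not spread over the gene. Of its 22 exons, the first 15, with 1530 bases, belong to the long transcripts alone, and the last 7, with 661 bases, make up the short transcript, whose own first exon is exon 16. The exons of the short transcript took 598 of the 621 alignments deposited with MS-275 replicate 1 (96.3%, Wilson 95% interval 94.5 to 97.5) and 57 of the 70 deposited with replicate 2 (81.4%, 70.8 to 88.8). Counted once per position, the shares were 86.5% and 81.4%. Exon 16 alone, 94 bases long, held 205 alignments at 26 positions and 15 at 15, which is 109 and 14.6 RPKM. The 15 exons of the long transcripts held 0.751 and 0.778 RPKM, and the 6 shared exons 34.6 and 6.79. Exon 19 held 220 and 7 alignments and the last exon, 22, held 157 and 28. An ungapped alignment of 35 bases has few places to lie in exons of 27 to 63 bases, so the alignments wholly inside exons were also divided by the starts such an alignment can have. Per kb of possible starts, the short transcript then held 67.6 and 11.5 RPM, and the exons of the long transcripts 0.973 and 1.16.

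The long transcripts also had more reads with MS-275 than with solvent. Their exons held 1 alignment in each of the solvent sets and 23 and 13 in the MS-275 sets, which is 27.0-fold higher in the first pair (4.38 to 1111) and 11.7-fold higher in the second (1.75 to 495). The exons of the short transcript held 5 and 0 alignments with solvent and 598 and 57 with MS-275, 140-fold higher in the first pair (59.8 to 434) and at least 17-fold higher in the second, where the count of 0 was replaced by a floor of 3 alignments per library. Introns before the short start held 0.0412 RPKM or less in every set, while introns after it held 0.0213 and 0.0255 with solvent and 0.612 and 0.321 with MS-275. Over all alignments, the RPKM of the long exons was alike in both MS-275 sets and that of the short transcript was not. At distinct positions, the long exons held 20 and 13 and the short transcript 128 and 57, of 9122347 and 10915650 distinct positions. Only the first of these sets holds repeated positions, and their part in the difference was not tested. Multiplied by 100, the values of Dmkn in MS-275 replicates 1 and 2, 7.63 and 44.1, were close to the 7.90 and 45.2 RPKM on the short transcript, and well above the 2.93 and 14.2 over all annotated exons. The library protocol does not mark strand, and 289 of 621 and 41 of 70 alignments were on the plus strand.

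**Figure D1:**
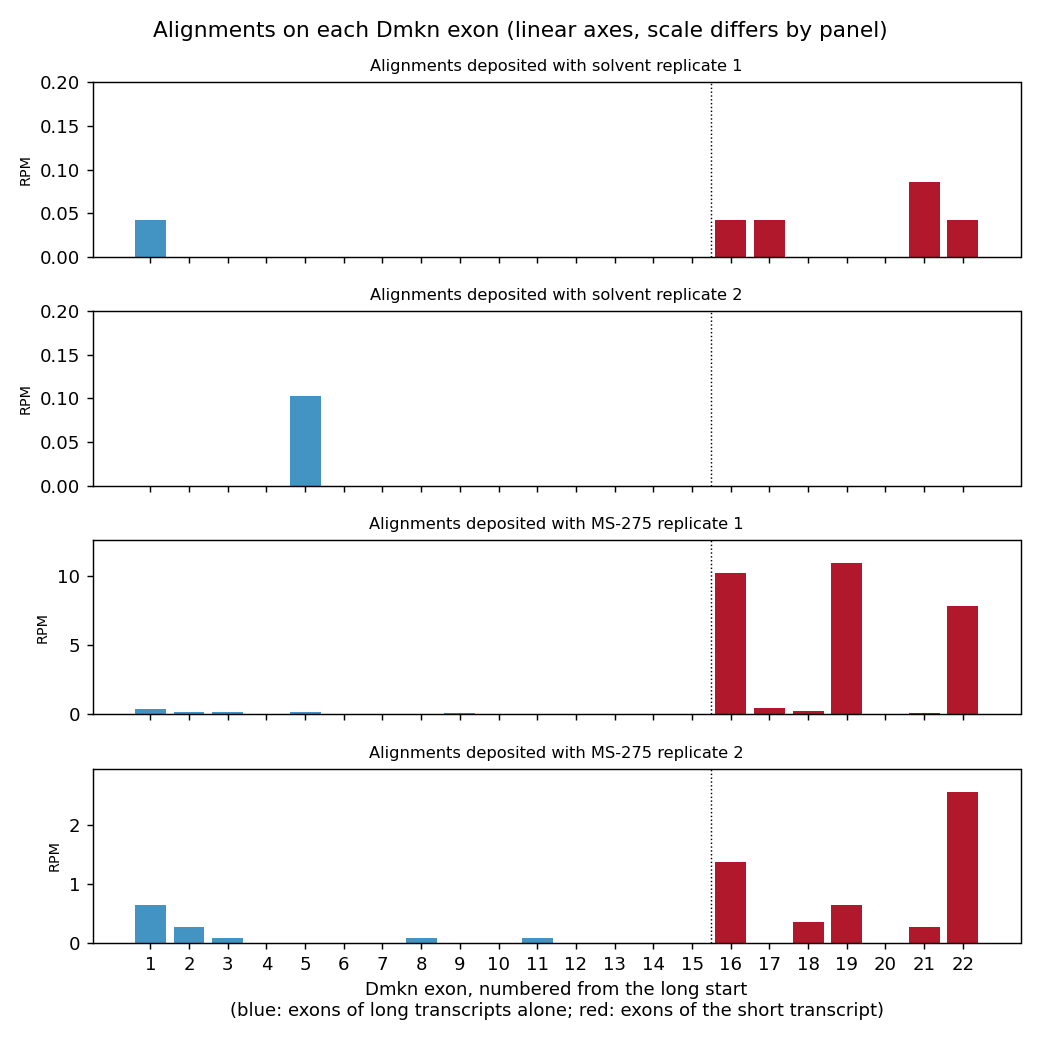
Alignments in RPM on each of the 22 exons of Dmkn, in 1 panel for each library they were deposited with, on linear axes whose scale differs by panel. Exons 1 to 15 (blue) belong to the long transcripts alone and exons 16 to 22 (red) to the short transcript. With MS-275, exons 16 and 22 stand out in both panels, and exon 19 only in that of replicate 1 (220 alignments against 7). The long exons hold 23 and 13 alignments in all.

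Sbsn did not follow its neighbour. Its values were 0.0357 and 0.0248 with solvent and 0.0235 and 0.0466 with MS-275, so the groups overlapped and the pairs went opposite ways, with log2 differences of -0.52 in pair 1 and 0.79 in pair 2. The solvent libraries averaged 0.0303 ± 0.0077 (SD, n = 2), and the MS-275 libraries 0.0350 ± 0.0163 (SD, n = 2). The direction of the group difference, 0.14, turned to -0.10 when the libraries were scaled by median ratios. Its exons held 68 and 36 alignments with solvent and 98 and 41 with MS-275, a ratio of 1.69 in the first pair (1.23 to 2.34) and 1.02 in the second (0.637 to 1.64). Between 61.0% and 76.6% of the alignments on Sbsn were on exons. Unlike Dmkn, Sbsn had reads in solvent-treated ESCs at a middling level, with 61.0% and 62.0% of all genes at a lower value.

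Krtdap went with Dmkn at a lower level. Its values were 0 and 0.00531 with solvent and 0.0202 and 0.0424 with MS-275. Both MS-275 libraries lay above both solvent libraries, and the log2 differences of 2.33 and 2.20 in the pairs were close to each other. By its group difference of 2.27 it stood at rank 344 of 28250 genes. The exons of Krtdap held 5 and 0 alignments with solvent and 50 and 12 with MS-275, 11.7-fold higher in the first pair (4.71 to 37.7) and at least 3.59-fold higher in the second against the floor of 3 alignments. The 50 alignments stood at 24 positions and lay on all 6 exons, and 11 and 1 alignments with MS-275 lay in introns.

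The structural genes of the envelope stayed at or near 0. Ivl and Sprr1b were at 0 in all 4 libraries and had 0 alignments on their exons. A count of 0 allows up to 0.307 RPM in the smallest set. Sprr1a was at 0 in 3 libraries and at 0.00106 in solvent replicate 2, which rests on 2 alignments at 1 position. Lor was at 0 and 0.00024 with solvent and at 0.00051 and 0.00084 with MS-275. Although the groups of Lor did not overlap, these values rest on 0, 1, 1 and 3 alignments, too few to show a difference at this depth.

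Tgm1, the cross-linking enzyme, had the highest value of the 8 genes with solvent, on the value scale, which follows reads per kb. Its values were 0.0624 and 0.0346 with solvent and 0.0791 and 0.0720 with MS-275, with log2 differences of 0.32 and 0.96 in the pairs. Both MS-275 libraries lay above the solvent libraries, but the gap between the groups was smaller than the distance between the solvent libraries. Its exons held 170 and 174 alignments with solvent and 179 and 248 with MS-275, a ratio of 1.24 in the first pair (0.996 to 1.53) and 1.28 in the second (1.05 to 1.56).

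**Figure D2:**
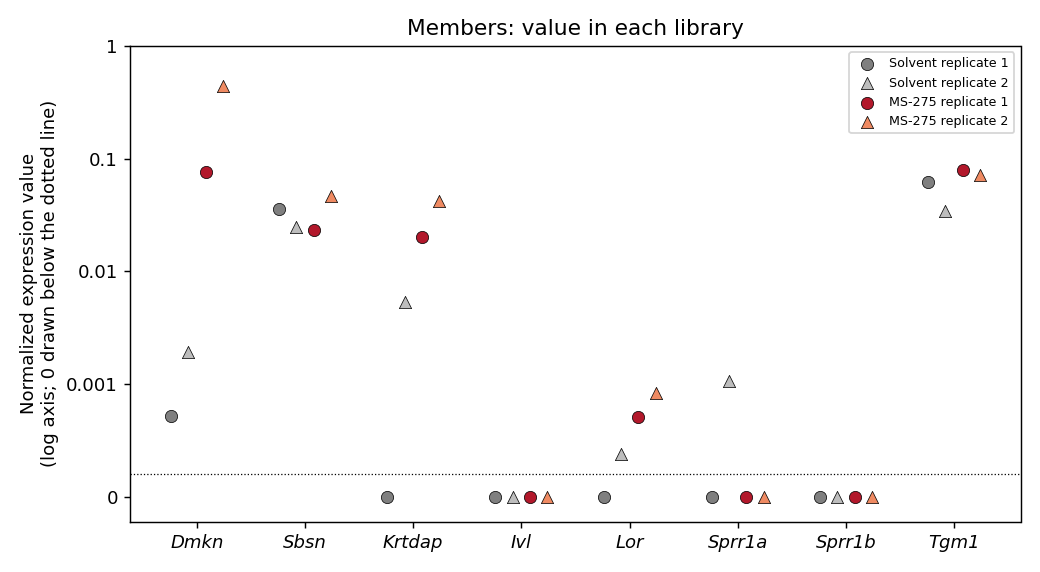
Normalized expression value of the 8 genes in each of the 4 libraries, on a log axis with values of 0 drawn below the dotted line. Circles are replicate 1 and triangles replicate 2; Dmkn spans 0.00052 to 0.441, while Ivl and Sprr1b are at 0 throughout.

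Across the 8 genes, both MS-275 values lay above both solvent values for Dmkn, Krtdap, Lor and Tgm1, against 26.1% of all 28250 genes listed, and both lay below for 0 of the 8, against 9.09%. The fit across all genes required a pair of libraries or more at 0.001 or above, and 4 of the 8 (Dmkn, Sbsn, Krtdap and Tgm1) met this. These counts restate the contrast that chose the genes.

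By the distance of log2(value + 0.005) over the 4 libraries, no gene lay within 1 of Dmkn, against 52 genes for Krtdap and 250 for Sbsn. Leaving out the 8 genes themselves, the nearest to Dmkn were Hspa1a, a heat shock chaperone, at 1.13, LOC100504448 at 1.22 and Spz1 at 1.30. Hspa1a had values of 0.00146 and 0.00366 with solvent and 0.0747 and 0.208 with MS-275. The nearest to Krtdap were Pnoc (0.449), 1700056E22Rik (0.568) and Ch25h (0.601), and to Sbsn Gm4349 (0.158), Mmp15 (0.444) and Tufm (0.444).

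The gaps of the cluster held almost no reads. Between Sbsn and Dmkn 0 and 0 alignments were found with solvent and 3 and 0 with MS-275, and between Dmkn and Krtdap 1 and 0 with solvent and 2 and 1 with MS-275. In bins of 10 kb within 500 kb of the long start of Dmkn, the bin from 10 to 20 kb, which holds the short transcript, had the highest ratio of the group means, where a solvent mean under the floor of 0.307 RPM was replaced by it. It held 0.298 and 0.102 RPM with solvent and 32.7 and 6.69 with MS-275, a ratio of 64.2 to the floor. Of the 100 bins, 27 reached the floor in both MS-275 sets and were there more than 2-fold higher than in both solvent sets. They lay on both sides of the cluster, and the bin that holds the start of Sbsn was not among them. That bin held 226 and 163 alignments with solvent and 139 and 133 with MS-275. Exon 1 of Sbsn, which lies in it, held 40 and 23 with solvent and 58 and 31 with MS-275. Most reads of the bin thus lay outside this exon, and the bin does not describe Sbsn alone. Bins elsewhere in the genome were not counted, so it was not tested whether 27 of 100 is particular to this region.

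**Figure D3:**
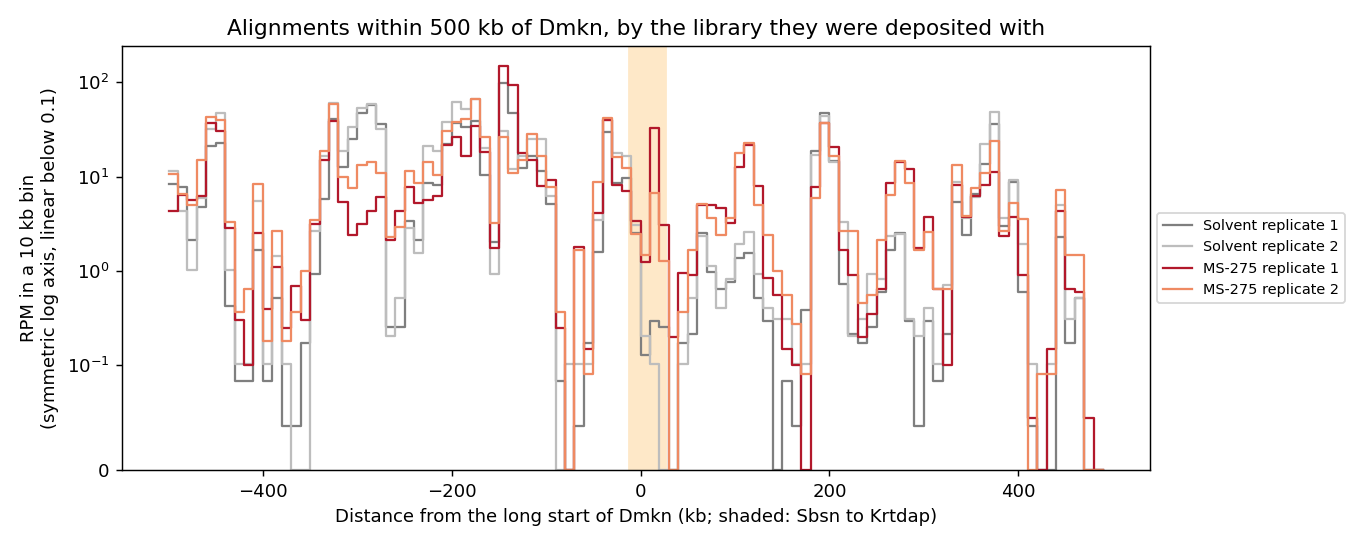
Alignments in RPM in bins of 10 kb against the distance from the long start of Dmkn in kb, for each of the 4 libraries they were deposited with, on a symmetric log axis. The span from Sbsn to Krtdap is shaded; in the bin from 10 to 20 kb the MS-275 sets stand at 32.7 and 6.69 and the solvent sets at 0.298 and 0.102.

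The other genes around the cluster were compared because their values were not used to choose it. Of 52 genes with a value that start within 500 kb of Dmkn, 50 were tested. In limma's fit of 20336 genes without a block, 0 passed a Benjamini-Hochberg adjusted p of 0.05 in either direction, against 0.00492% of all genes tested as higher and 0.0% as lower (before adjustment, 13 had a p under 0.05 as higher and 4 as lower). With the replicate number as a block 18 were called higher and 5 lower, against 21.0% and 6.46% of all genes tested, and their median log2 difference was 0.47 against 0.20 over all genes. Scaling by median ratios, which moves the median of all genes to -0.01, gave 15 higher and 7 lower with the block, against 16.6% and 14.1% of all genes tested. Counted at distinct alignment positions with limma-voom, 16 were higher and 11 lower with the block, against 29.7% and 13.8% of 16994 genes, and 10 were higher and 6 lower without it, against 15.1% and 5.08%.

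Within 100 kb, 4 of 9 genes were called higher with the block and 0 lower. The gene 2200002J24Rik, 64.0 kb upstream, had values of 0.00176 and 0.00128 with solvent and 0.0275 and 0.0345 with MS-275 (log2 difference 2.46, limma adjusted p 3.1e-05 with the block and 0.0614 without). The others called were 4930479M11Rik (1.49, adjusted p 0.00175 with the block and 0.238 without), Atp4a, a subunit of the gastric proton pump (1.07, 0.0159 and 0.512), and Ffar1, a receptor of fatty acids (0.64, 0.0350 and 0.166). Ffar1 had values of 0 and 0.00047 with solvent and 0.00203 and 0.00443 with MS-275. Its exons held 1 and 0 alignments with solvent and 8 and 2 with MS-275. It passed the filter through MS-275 alone, which fixed its direction, and was too low for the test at distinct positions. The rest of the 9 genes did not pass. Gapdhs, the sperm glyceraldehyde-3-phosphate dehydrogenase and the gene next to Sbsn, had a log2 difference of 0.79, Tmem147 0.17, Gm4883 -0.15, and the fatty acid receptors Ffar2 and Ffar3 0.49 and 0.45. Thus the genes that flank the cluster, Gapdhs upstream and Ffar2 downstream, did not pass the test.

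Farther out, 2 genes of the FXYD family, small regulators of the sodium-potassium pump, had the largest rises. Fxyd7, 288 kb downstream, went from 0.00452 and 0.00063 to 0.0649 and 0.0760 (log2 difference 3.36, limma adjusted p 5.6e-06 with the block and 0.0581 without), and Fxyd1 from 0.00605 and 0.00378 to 0.0569 and 0.101 (3.04, 1.4e-05 and 0.0646). The largest falls were those of Nphs1, which encodes nephrin of the kidney filter, from 0.185 and 0.194 to 0.0639 and 0.0225 (-2.16, 7.3e-05 and 0.0760), and of its antisense transcript Nphs1as (-2.32, 8.8e-05 and 0.118), whose reads cannot be told from those of Nphs1 without strand. The neighbourhood thus held rises and falls, and none of these genes reached the log2 difference of 4.94 of Dmkn.

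A list of 117 other genes of the epidermal programme, in groups for the epidermal differentiation complex, the envelope, the barrier, the cell junctions and the regulators, was compared in the same fit. The list was chosen with earlier results of these data known. Its counts beside the shares of all genes are therefore a description and not an independent test. Of these genes 36 were at 0 in all libraries, among them the mismatched Serpina1c described below, and 64 were tested. In limma's fit 0 passed without the block (before adjustment, 21 had a p under 0.05 as higher and 1 as lower), and with it 28 were called higher and 5 lower, against 21.0% and 6.46% of all genes tested. The median log2 difference of the tested genes was 0.63 against 0.20 over all genes. With median-ratio scaling and the block, 23 were higher and 6 lower, against 16.6% and 14.1%. At distinct positions, 34 were higher and 5 lower with the block and 17 and 1 without it, against the shares given for the neighbours.

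The epidermal differentiation complex, the chromosome 3 cluster to which Ivl, Lor, Sprr1a and Sprr1b belong, was largely silent. Of its 44 other genes 32 were at 0 in all libraries, 4 were tested and 1 was called higher with the block. This was Sprr2e, a small proline-rich protein, with values of 0 and 0.00263 with solvent and 0.00850 and 0.0216 with MS-275 (log2 difference 1.62, limma adjusted p 0.000395 with the block and 0.102 without). The small proline-rich genes are near-identical copies, so the assignment of its reads is uncertain. The other tested genes were filaggrin (Flg, 0.36), Crct1 (0.19) and trichohyalin (Tchh, 0.15), and none passed.

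Of the other envelope genes 8 of 14 were tested, 3 were called higher with the block and 0 lower. The entry Pi3 among the 14 was matched through a synonym to Serpina1c, a serpin and not an envelope gene. It was at 0 in all libraries and not tested, so no call rests on it. Periplakin (Ppl), which lines the envelope, went from 0.0195 and 0.0127 to 0.0563 and 0.0377 (log2 difference 1.30, limma adjusted p 0.00442 with the block and 0.333 without), and Cst6, an inhibitor of cysteine proteases, had a difference of 1.18 (0.00207 and 0.113). At the lower end were corneodesmosin (Cdsn, -0.08) and keratin 1 (Krt1, -0.03), which did not pass. Of 18 barrier genes 16 were tested, 7 were called higher and 1 lower. The lipoxygenase Alox12b, which works on the ceramides of the barrier, went from 0.0209 and 0.00354 to 0.0901 and 0.0471 (2.24, adjusted p 9.4e-05 with the block and 0.151 without), and the tight junction protein Cldn1 had a difference of 1.84 (0.000318 and 0.107). The protease St14 (matriptase) was the gene called lower, from 0.141 and 0.108 to 0.111 and 0.0458 (-0.75, 0.0377 and 0.521), and its partner Prss8 did not pass (-0.14).

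Of 15 junction genes 10 were tested, and 3 were called higher and 2 lower with the block. The plakophilins Pkp2 and Pkp1, linkers of the desmosome, had differences of 1.81 (limma adjusted p 8.2e-05 with the block and 0.0760 without) and 1.01 (0.0113 and 0.207). Pkp2 had values of 0.175 and 0.0904 with solvent and 0.452 and 0.456 with MS-275. Desmoglein 2 (Dsg2, -0.85, 0.0141 and 0.526) and Perp (-0.80, 0.0172 and 0.439), proteins of the same junction, were the 2 called lower.

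All 26 regulators were tested, and 14 were called higher and 2 lower with the block. Cebpa, which acts in keratinocyte differentiation, went from 0.0176 and 0.00586 to 0.167 and 0.119 (log2 difference 3.22, limma adjusted p 2.3e-06 with the block and 0.0581 without). The homeobox factor Dlx3 went from 0.00392 and 0.00458 to 0.0436 and 0.116 (3.05, 1.6e-05 and 0.0703). Prdm1 (Blimp-1), a repressor, went from 0.114 and 0.0702 to 0.0389 and 0.0137 (-1.72, 0.000334 and 0.182), and Zfp750 was the other called lower (-0.90, 0.0407 and 0.566). Regulators of keratinocyte differentiation were thus found in both directions.

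**Figure D4:**
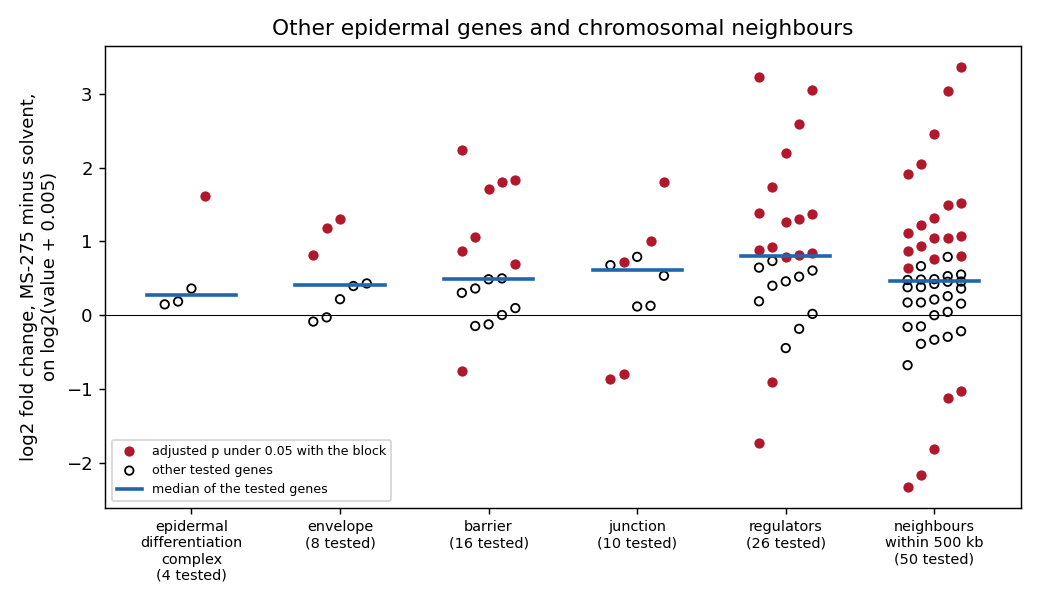
Log2 difference of MS-275 minus solvent on log2(value + 0.005) for the tested genes of 5 epidermal groups and of the 50 tested neighbours within 500 kb of Dmkn. Filled points have an adjusted p under 0.05 in limma's fit with the replicate block, open points do not, and lines are medians; positive differences outnumber negative ones in each group.

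The cells were checked against marker genes. The 10 ESC markers were all above 0, with a summed value of 6.08 and 23.2 with solvent and 4.83 and 13.6 with MS-275, and 4 of them (Pou5f1, Esrrb, Utf1 and Fgf4) were called lower with the block. The 10 keratinocyte markers, 9 of them tested, summed to 0.130 and 0.0807 with solvent and 0.212 and 0.122 with MS-275. The sum was higher with MS-275 within both pairs, while the groups overlapped. Among them Krt5 (0.00058 and 0, then 0.00878 and 0.00619), Trp63 and Lamb3 were called higher with the block and 0 lower, and Dsg3 stayed at 0.00301 or less. Trp63, Krt1, Krt10 and Dsc3 are also in the lists above. The 9 trophoblast markers summed to 0.311 and 0.268 with solvent and 0.392 and 0.281 with MS-275, with 3 called higher (Cdx2, Elf5 and Gata3) and Tpbpa and Prl3d1 at 0 throughout. The 10 feeder markers summed to 1.23 and 2.24 with solvent and 1.33 and 1.68 with MS-275. With the block 5 were called higher (Col1a1, Col1a2, Thy1, Pdgfrb and Lum) and 0 lower. Dcn, Fn1 and Col3a1 had negative log2 differences (-0.72, -0.71 and -0.52) that did not pass. Over all genes tested, 21.0% were called higher and 6.46% lower with the block. Krt5, Cdx2 and Elf5 reached 0.001 with MS-275 alone, so the filter fixed their direction as higher. In limma's fit without the block 0 markers passed. The part of other cell types in the values of Dmkn and Krtdap was not tested.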

How the data were processed

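RNA-seq of TBV2 ESCs was analysed in 2 solvent and 2 MS-275 libraries, grouped by title; the duplicate of each condition was taken as replicate 2. Poly(A) RNA had been primed with random hexamers and sequenced without strand. As deposited by the authors, the values are a normalized expression signal per gene made with Genomatix on mm9 (formula and version not given in the sources used here), with alignments as positions. The control vehicle was not resolved, so it is called solvent. The members and lists were chosen with earlier results of these data known.

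The 20336 genes that reached 0.001 in 2 libraries or more were fitted on log2(value + 0.005) with limma 3.58.1 (lmFit, eBayes with a trend) in R 4.3.3, with Benjamini-Hochberg adjustment. The block pairs libraries by replicate number: the authors' headers call the values of replicate 1 of both conditions old, and deviations from the group means correlated at 0.764 between libraries of the same number. Tables were made with Python 3.11.15 and pandas 2.3.3. In simulated data with 200 genes changed by 2 on the log2 scale among 20336, the fit recovered 0 without and 200 with the block, with 0 and 10 false calls. The simulated data held the replicate effect estimated from these libraries, which is what the block models. The simulation therefore cannot show whether the block is right for these data.

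Alignments were counted on the merged exons of GENCODE M1 on mm9 by their centre. Intervals are 95% and cover counting error alone, since repeated reads are not independent molecules. The floor for a count of 0 was 3 alignments. Named genes were the 8 members, in each epidermal group the 2 highest and 2 lowest tested genes by log2 difference, all genes within 100 kb of Dmkn and 2 in each direction beyond, the 3 genes nearest in pattern, and markers at the extremes. Of 120 list entries 117 were listed, and Sprr2a1, Lce1j and Junb were not matched. The entry Pi3 was matched to Serpina1c by a synonym and kept in the counts. The authors' ratio tables and shorter tables were not used here.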

Additional observations from a re-analysis of the deposited data

How the results depend on the processing

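In limma's fit of the values of all 4 libraries, with the filter and scaling of the report and no block, 0 genes of the epidermal list and 0 neighbours were called. The replicate block gave 28 higher and 5 lower in the epidermal list and 18 higher and 5 lower among the neighbours, and with median-ratio scaling added 23 and 6, and 15 and 7. A mean value of at least 0.01, which left fewer genes to test, gave 5 higher in the epidermal list and 4 higher and 1 lower among the neighbours without a block. From the alignments with limma-voom, all alignments gave 5 and 3 higher, distinct positions 17 higher and 1 lower in the epidermal list and 10 and 6 among the neighbours, and distinct positions with the block 34 and 5, and 16 and 11. With 1 library left out, between 0 and 1 genes of the epidermal list were called higher, and between 0 and 1 neighbours; the 1 appeared without solvent replicate 1, where the lone solvent library is assumed to vary like the others. The median of the epidermal list was 0.12 instead of 0.63 when genes at or near 0 were kept, and it stayed between 0.30 and 0.95 in the other settings. The highest ratio in a bin near Dmkn was 64.2 to the floor of 0.307 RPM, which replaced the solvent mean. It was 23.8 to the same floor in bins of 2 kb, where the bin held 0 alignments with solvent, and 40.2 at distinct positions, where the solvent mean was above the floor. Sbsn turned to -0.24 with quantile normalization and to -0.10 with median-ratio scaling, with or without the block, and ran from -0.29 without MS-275 replicate 2 to 0.57 without MS-275 replicate 1. In the limma-voom settings Sbsn stayed positive, at 0.44 on all alignments and at 0.37 (0.50 with the block) on distinct positions. Dmkn ran from 3.72 to 6.17 with 1 library left out and Krtdap from 1.74 to 2.79. Pseudocounts of 0.001 and 0.02 moved Dmkn to 6.45 and 3.31 and Krtdap, at 2.27 in the report, to 3.59 and 1.154. With limma-voom, Krtdap was at 4.002 on all alignments and at 3.74 (3.71 with the block) on distinct positions, and Dmkn at 6.20 on all alignments. A value of the members with fewer than 4 alignments, as for Lor and Sprr1a, is limited by depth.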

Other observations

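A run of bins over Cd22, a lectin of B cells that starts 117 kb downstream of Dmkn, was also higher with MS-275. It was singled out after the bins were seen. Cd22 had values of 0.00352 and 0.00165 with solvent and 0.0159 and 0.00976 with MS-275 (log2 difference 1.22, limma adjusted p 0.00335 with the block and 0.161 without). Over the gene and the 8 kb before its start, 77 and 53 alignments were found with solvent and 821 and 489 with MS-275, which is 3.28 and 5.42 RPM with solvent against 41.0 and 44.8 with MS-275. Only 11.4% and 16.2% of those with MS-275 were on exons of Cd22. Its introns held 1.78 and 2.37 RPKM and its exons 1.09 and 1.68, and the 8 kb before the start, where no gene is annotated, held 2.18 and 1.55 against 0.144 and 0.281 with solvent. The reads at the short transcript of Dmkn had the opposite form, with most on exons.

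Reads of other envelope genes also differed in how far they lay on exons. Of the alignments on Tgm1, 68.0% and 88.3% were on exons with solvent and 79.2% and 95.02% with MS-275, so the share differed more between the deposited replicates than between the conditions.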
